A study of Mus musculus with 72 samples.

Results

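The imprinted gene network examined here consists of 10 named genes of the 55401 measured, all 10 of which were found by symbol: *H19*, *Igf2*, *Igf2bp2*, *Dlk1*, *Meg3*, *Rian*, *Cdkn1c*, *Grb10*, *Peg3*, and *Plagl1*. The genes were selected on measured values, with earlier results from these data in view, and which contrast prompted the choice was not recorded. The gastrocnemius comparisons between WT, *Bmal1*-KO, and KO+AAV mice are therefore described by levels, folds, and errors, with no p value, and so are the changes of these comparisons with age. Where such a value is called past the threshold or not, this places it among all genes fitted and is no independent test. Tests are given for age, for the GFP vector, and for the other tissues. Any of these contrasts may also have prompted the choice, so their p values cannot be taken as independent of it. The age tests also share libraries with the genotype comparisons.

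The study compared male mice lacking the clock transcription factor BMAL1 in every cell (*Bmal1*-KO) with WT littermates and with KO mice given AAV9-CK6-*Bmal1*-HA on postnatal day 5 (KO+AAV). The CK6 promoter drives the transgene in skeletal muscle, and every KO+AAV animal otherwise carries the same global deletion as the KO. Poly(A) RNA of gastrocnemius was sequenced at 10 weeks from 6 WT, 6 KO, and 7 KO+AAV mice and at 40 weeks from 5 of each, with tissue taken at ZT1. A separate 10-week experiment set 3 KO mice given a GFP vector (KO+GFP) against 3 control KO mice, and 4 KO and 4 KO+AAV mice gave heart, lung, liver, and white fat at 40 weeks, where there was no WT group. The labels number the libraries of a group and name no animal, so errors and p values measure the spread between these samples.

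Imprinted genes are transcribed mainly from the maternal or the paternal copy, and many act together on growth before and after birth. Of the 10 genes, 9 are imprinted, 5 of them expressed from the maternal copy (*H19*, *Meg3*, *Rian*, *Cdkn1c*, and *Grb10*) and 4 from the paternal copy (*Igf2*, *Dlk1*, *Peg3*, and *Plagl1*). *H19* is a noncoding RNA that shares enhancers with the neighboring growth factor gene *Igf2*, is abundant in fetal muscle, and hosts the microRNA miR-675. *Igf2bp2* is not imprinted. It encodes an RNA-binding protein that binds *Igf2* and other mRNAs and is itself a known target of let-7 microRNAs. In adult muscle most of these genes are expressed far below their fetal level, although *H19* remains abundant, and several are used by satellite cells and regenerating fibers.

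On the mouse genome GRCm38, *H19* (ENSMUSG00000000031) occupies chr7:142575529-142578143 and *Igf2* (ENSMUSG00000048583) chr7:142650766-142666816, both on the minus strand, with *Cdkn1c* at chr7:143458339-143461050 on the same strand. *Dlk1*, *Meg3*, and *Rian* follow one another on the plus strand of chromosome 12, at chr12:109452823-109463336, chr12:109541001-109571726, and chr12:109603940-109661716. *Grb10* lies at chr11:11930508-12038683 (minus strand), *Peg3* at chr7:6703892-6730431 (minus strand), *Plagl1* at chr10:13060504-13131694 (plus strand), and *Igf2bp2* at chr16:22059009-22163299 (minus strand).

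The mature strands of miR-675 are shown because they are the known small RNA product of *H19*, the most abundant of the 10 genes in gastrocnemius. Capitals mark the seed (bases 2 to 8) and the sequences are those of RefSeq on GRCm38. The mature bases lie at chr7:142577112-142577133 for the 5p strand and chr7:142577078-142577099 for the 3p strand, inside *H19* and on its strand. Poly(A) libraries do not capture mature microRNAs, so no level of miR-675 was measured.
miR-675-5p: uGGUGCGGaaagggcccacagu
miR-675-3p: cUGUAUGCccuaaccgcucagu

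BMAL1 binds E-boxes, and the RefSeq windows from 250 bases before to 50 bases after a start site were searched for CACGTG, which reads the same on both strands. Windows were available for 8 of the 10 genes, 13 windows in all, and 1 of the 13 held the motif, against 7.15% of the 32851 windows in the table. That window belongs to *Plagl1* (chr10:13090582-13090881, plus strand, GRCm38) and is shown with the motif in capitals, its first base 182 bases before the start site. A match describes letters only.
Plagl1 window: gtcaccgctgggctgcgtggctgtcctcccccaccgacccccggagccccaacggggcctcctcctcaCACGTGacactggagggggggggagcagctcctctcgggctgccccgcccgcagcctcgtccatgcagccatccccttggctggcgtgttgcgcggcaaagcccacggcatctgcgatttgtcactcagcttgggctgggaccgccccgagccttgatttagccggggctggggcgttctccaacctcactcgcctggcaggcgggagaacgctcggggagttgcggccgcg

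Levels are normalized counts, which are the reads of a gene divided by the size factor of its library, and RPKM (reads scaled to exon length and library size) where genes are compared with each other. Differences are on the log2(normalized count + 1) scale with their SE from limma, and a gene is said to be past the threshold where its Benjamini-Hochberg adjusted p over all genes tested was under 0.05. Gastrocnemius libraries of the main experiment held 9325122 to 41733282 reads, those of the GFP experiment 6754312 to 8515400, and those of the other tissues 36903079 to 50755829. At 10 weeks, 3 WT, 3 KO, and 4 KO+AAV libraries came from the sequencing site ICBR and 3 of each group from Novogene, and the fit held a term for site. All 40-week gastrocnemius libraries and the GFP experiment came from Novogene and all other tissues from ICBR. *Arntl*, the gene that encodes BMAL1, has 1 value per library, with no split by exon, and kept reads in the KO libraries, with 402.5 to 633.9 normalized counts in the WT libraries at 10 weeks, 196.1 to 296.5 in KO, and 169.3 to 281.1 in KO+AAV. At 40 weeks it measured 479.9 to 607.9 in WT and 268.1 to 358.6 in KO+AAV. The KO libraries at 40 weeks held 307.5 to 1038.7, and the library labeled KO replicate 2 was the one at 1038.7, above all WT libraries. The KO+AAV and KO ranges of *Arntl* overlapped at both ages. By western blot, the study detected BMAL1 protein from the vector in KO+AAV gastrocnemius at 10 weeks, below the WT level. The overlap of these counts therefore does not show that the transgene was silent. Calls that rest on KO replicate 2 are given without it too.

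*H19* was higher in KO than in WT gastrocnemius at both ages, 2.35-fold at 10 weeks and 7.64-fold at 40 weeks, and KO+AAV muscle was 2.83-fold above WT at 10 weeks. At 10 weeks, *H19* had a lowest, median, and highest value of 3146, 5312, and 7045 normalized counts in WT muscle, 6279, 11997, and 19034 in KO, and 7169, 15242, and 45862 in KO+AAV. The WT and KO ranges met between the lowest KO library and the highest WT libraries, whereas every KO+AAV library lay above every WT library. The difference of WT minus KO was -1.23 ± 0.34 (SE) and that of WT minus KO+AAV was -1.50 ± 0.33. Within a sequencing site, the WT minus KO difference was -1.45 in the ICBR libraries and -1.01 in the Novogene libraries, neither past the threshold. That of WT minus KO+AAV was -1.79 at ICBR, past the threshold, and -1.17 at Novogene, which was not.

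At 40 weeks, the 5 WT libraries held 1911, 4087, 2234, 2183, and 4183 normalized counts of *H19*. The KO libraries held 19710, 29670, 41902, 17191, and 9841, and the KO+AAV libraries 7370, 11368, 30579, 12511, and 16982. All KO and KO+AAV libraries were above all WT libraries, and the KO and KO+AAV ranges overlapped. WT minus KO was -2.93 ± 0.37, or -2.81 without KO replicate 2, and WT minus KO+AAV was -2.35 ± 0.37, a 5.09-fold higher mean level in KO+AAV. Per length, *H19* was the highest of the 10 genes in each gastrocnemius group, with group medians of 132.9, 310.8, and 376.7 RPKM in WT, KO, and KO+AAV at 10 weeks and 56.5, 476.6, and 326.5 RPKM at 40 weeks.

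Markers of slow fibers varied widely between libraries. The summed level of 7 such markers at 10 weeks was 2437.7 to 20251.1 normalized counts in WT, 1853.9 to 65051.5 in KO, and 3212.5 to 40547.3 in KO+AAV. At 40 weeks it was 1539.0 to 26991.1 in WT, 9203.0 to 157754.0 in KO, and 3736.1 to 34241.7 in KO+AAV, and KO replicate 3 was highest for both the sum and *H19*. Among the WT libraries, replicates 2 and 5 had the highest sums (25341.3 and 26991.1) and the highest *H19*. Other libraries did not follow this order. KO replicate 5, with a sum of 32819.1, had the lowest *H19* of its group. In KO+AAV, replicate 1 had the highest sum (34241.7) and the lowest *H19*, while replicate 3 (31487.4) had the highest *H19*. With that sum added to the fit as a covariate, chosen after the data were seen, the *H19* difference of WT minus KO was -1.04 at 10 weeks and -2.50 at 40 weeks. The sum of 10 markers of regenerating fibers was 2695.8 to 13790.1 in WT, 7922.3 to 39454.8 in KO, and 14066.3 to 49961.8 in KO+AAV at 10 weeks, where KO+AAV did not overlap WT. It was higher outside WT without overlap at 40 weeks, at 1202.0 to 1548.6 in WT, 4466.2 to 7341.8 in KO, and 2210.5 to 8044.4 in KO+AAV, with 2 of the 10 at 0 in all WT libraries. Fibro-adipogenic cell markers went the other way at 40 weeks, at 18697.1 to 24909.1 in WT, 3982.5 to 11965.6 in KO, and 4567.0 to 16104.4 in KO+AAV. The regenerating fiber list includes *Actc1*, which is also a cardiomyocyte marker, and its sum was not split by gene. The cardiomyocyte markers, which share only *Actc1* with that list, had nearly the same sums in gastrocnemius at 10 weeks. They were 3530.1 to 13425.4 in WT, 7554.4 to 39723.1 in KO, and 13246.7 to 49394.8 in KO+AAV. The regenerating fiber sum may therefore be largely *Actc1*. In KO heart that sum was 163703.1 to 452160.9 with 4 of the 10 genes at 0, so it is not specific to regenerating fibers. The part of these markers in the result was not tested. In whole muscle, a change in the number of cells of a type and a change in RNA per cell cannot be told apart.

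*Igf2*, which encodes the fetal growth factor IGF2, was barely detected in gastrocnemius, with group medians of at most 0.91 RPKM. At 10 weeks, the lowest, median, and highest *Igf2* values were 4.82, 11.4, and 21.2 normalized counts in WT mice, 13.5, 16.4, and 44.6 in KO, and 15.2, 17.2, and 84.9 in KO+AAV. These ranges overlapped, and WT minus KO was -0.82 ± 0.43. At 40 weeks, *Igf2* measured 23.7, 8.77, 5.31, 3.13, and 9.38 in the WT libraries and 57.8, 25.1, 67.4, 32.1, and 26.2 in the KO libraries, which did not overlap. In KO+AAV it measured 17.5, 14.0, 39.9, 35.1, and 18.0, and WT replicate 1 reached into that range. For *Igf2*, WT minus KO was -2.10 ± 0.47, a 4.29-fold higher level in KO, or -2.25 without KO replicate 2, and WT minus KO+AAV was -1.38 ± 0.47. Of the 5723 exon bases of *Igf2*, 3596 are shared on the same strand with the annotated gene *Gm49394*, so reads there may not have been assigned to *Igf2* and its level is uncertain.

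**Figure D1:**
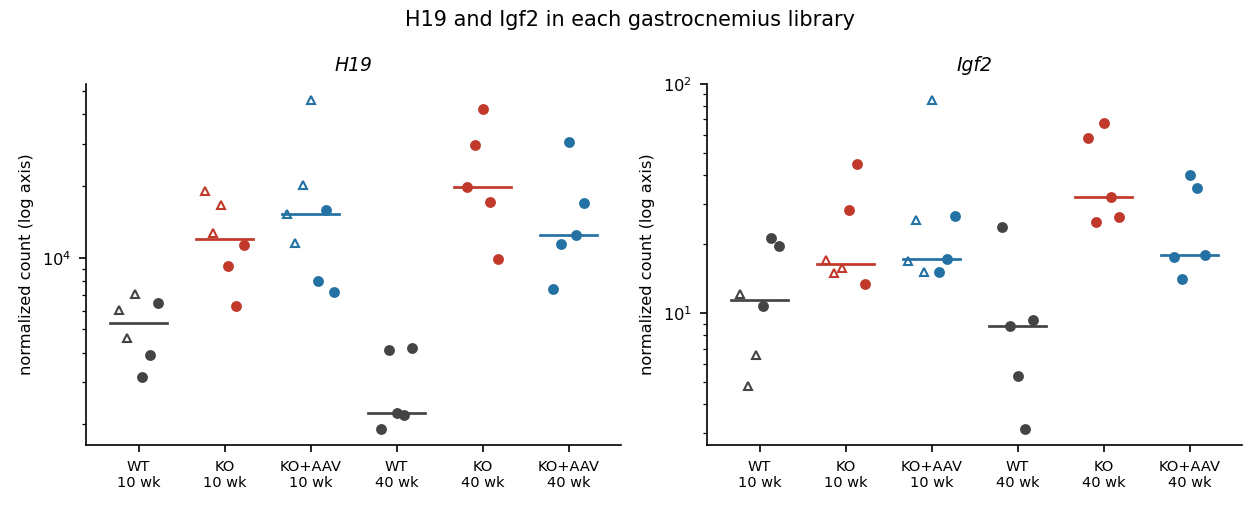
*H19* and *Igf2* in each gastrocnemius library of the main experiment, in normalized counts on a log axis, by genotype and age. Open triangles are ICBR libraries, filled circles Novogene libraries, and lines the group medians. At 40 weeks, the WT libraries reach 4183 for *H19*, below the lowest KO+AAV library at 7370 and the lowest KO library at 9841.

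*Igf2bp2* had the largest difference of the 10 genes between WT and KO at both ages. At 10 weeks, its lowest, median, and highest values were 16.7, 35.9, and 71.5 normalized counts in the WT libraries, 246.3, 371.1, and 471.8 in KO, and 114.7, 164.5, and 415.8 in KO+AAV. All KO and KO+AAV libraries lay above all WT libraries, and the single KO+AAV library above 179.6 was replicate 5. The difference of WT minus KO was -3.32 ± 0.31, a 10.0-fold higher level in KO, and WT minus KO+AAV was -2.31 ± 0.30, a 4.94-fold higher level in KO+AAV. Within sites, WT minus KO was -3.03 in ICBR libraries and -3.62 in Novogene libraries, both past the threshold.

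At 40 weeks, *Igf2bp2* measured 26.7, 41.4, 17.7, 18.8, and 18.8 normalized counts in WT muscle, 436.1, 128.9, 484.3, 319.4, and 186.2 in KO, and 223.1, 280.7, 323.9, 340.3, and 362.0 in KO+AAV. No KO or KO+AAV library overlapped WT, and the KO+AAV values all fell within the KO range. At that age WT minus KO was -3.51 ± 0.34, or -3.79 without KO replicate 2, and WT minus KO+AAV was -3.64 ± 0.34, an 11.4-fold and a 12.4-fold higher level.

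**Figure D2:**
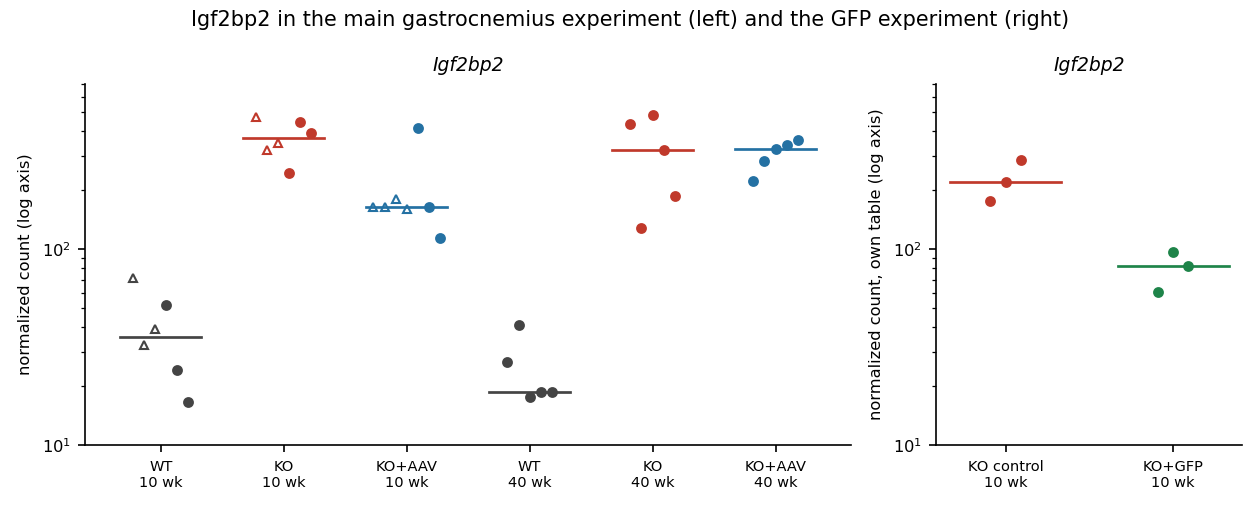
*Igf2bp2* in each gastrocnemius library in normalized counts on a log axis, with the main experiment on the left and the GFP experiment, normalized separately, on the right. Triangles are ICBR libraries, circles Novogene libraries, and lines group medians. WT libraries stay at or under 71.5, and the 3 KO+GFP libraries (60.8 to 97.5) lie below the 3 control KO libraries (175.7 to 285.0).

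The 3 genes of the chromosome 12 domain did not all differ from WT. *Dlk1* encodes a transmembrane inhibitor of fat cell differentiation, and *Meg3* and *Rian* are noncoding RNAs transcribed in the same direction from the maternal copy. *Rian* at 10 weeks had a lowest, median, and highest value of 106.0, 164.1, and 233.2 normalized counts in WT mice, 192.9, 481.5, and 674.8 in KO, and 282.4, 472.4, and 2633 in KO+AAV. A single KO library overlapped WT for *Rian*, and no KO+AAV library did. For *Rian*, WT minus KO was -1.40 ± 0.34, a 2.64-fold higher level in KO, and WT minus KO+AAV was -1.87 ± 0.33. Within sites, WT minus KO was -1.24 at ICBR, not past the threshold, and -1.56 at Novogene, past it. For WT minus KO+AAV it was -2.55 at ICBR, past the threshold, and -1.03 at Novogene, which was not.

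*Meg3* at 10 weeks ranged from 248.3 to 457.1 normalized counts in WT, from 349.8 to 766.1 in KO, and from 415.8 to 2992 in KO+AAV. For *Meg3*, WT minus KO was -0.56 ± 0.30, with overlapping groups, and WT minus KO+AAV was -1.17 ± 0.29, past the threshold in all 10-week libraries together and at neither site alone. By 40 weeks, *Meg3* ranged from 162.6 to 240.2 in WT, from 208.8 to 284.8 in KO, and from 102.5 to 289.9 in KO+AAV, and it was past the threshold in no genotype comparison. *Rian* then ranged from 70.4 to 136.4 in WT, from 122.7 to 205.2 in KO, and from 94.0 to 155.6 in KO+AAV, and WT minus KO was -0.73 ± 0.38. That difference was not past the threshold in the model of all 34 libraries, and it was in the Novogene libraries alone, which hold all 40-week libraries, and in a model of the 2 groups. *Dlk1* was near the lower limit of detection in every gastrocnemius group, with medians from 5.52 to 14.5 normalized counts, and WT minus KO was -0.02 ± 0.53 at 10 weeks. *Rian* relative to *Meg3* had a median ratio of 0.463 in the WT libraries, 0.924 in KO, and 0.880 in KO+AAV at 10 weeks and of 0.497, 0.71, and 0.598 at 40 weeks. The ratio ranges overlapped. At 10 weeks they were 0.419 to 0.619 in WT, 0.551 to 1.009 in KO, and 0.516 to 1.002 in KO+AAV. At 40 weeks they were 0.418 to 0.600, 0.582 to 0.983, and 0.505 to 0.918. Across the 34 main gastrocnemius libraries, *Meg3* and *Rian* correlated with a Pearson r of 0.925 on the log2 scale with the site difference removed, and 0.869 after group means were removed. These points share libraries, and r within groups was 0.776 without KO+AAV replicate 4 at 10 weeks.

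The growth inhibitors of the network were both higher in KO at 10 weeks. *Grb10* encodes an adaptor that binds the insulin and IGF1 receptors and dampens their signal. It had a lowest, median, and highest value of 520.6, 657.8, and 711.6 normalized counts in WT muscle, 1184, 1306, and 1447 in KO, and 1148, 1334, and 1981 in KO+AAV, and neither of the latter overlapped WT. WT minus KO was -1.07 ± 0.13, a 2.10-fold higher level in KO, and WT minus KO+AAV was -1.12 ± 0.12. Within sites, the *Grb10* difference of WT minus KO was -1.22 in ICBR libraries and -0.92 in Novogene libraries, both past the threshold. At 40 weeks, *Grb10* measured 521.9, 611.5, 603.5, 523.9, and 534.6 in WT mice, 774.5, 440.6, 824.6, 926.2, and 802.6 in KO, and 674.2, 673.7, 734.3, 674.4, and 661.6 in KO+AAV. KO replicate 2 was the single KO library under the WT range. WT minus KO was then -0.39 ± 0.14, and -0.57 without that library.

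*Cdkn1c* encodes p57, an inhibitor of cyclin-dependent kinases that acts when myoblasts leave the cell cycle. At 10 weeks it had a lowest, median, and highest value of 280.2, 344.9, and 470.2 normalized counts in the WT libraries, 464.1, 565.4, and 664.0 in KO, and 305.8, 479.3, and 851.1 in KO+AAV. The WT and KO ranges touched, and WT minus KO was -0.60 ± 0.16, a 1.52-fold higher level in KO. Within sites the difference was -0.60 in both, past the threshold in neither. At 40 weeks, *Cdkn1c* ranged from 303.4 to 410.6 in WT, 223.8 to 422.3 in KO, and 285.1 to 353.8 in KO+AAV, and no comparison was past the threshold.

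The zinc finger proteins of the network differed from each other. *Peg3*, which encodes a zinc finger protein expressed in muscle stem cells, ranged at 10 weeks from 239.0 to 547.4 normalized counts in WT, 334.7 to 779.2 in KO, and 441.1 to 1844 in KO+AAV. At that age the *Peg3* difference was -0.71 ± 0.32 for WT minus KO. WT minus KO+AAV was -1.17 ± 0.31, past the threshold, and it was -0.97 and no longer past it without KO+AAV replicate 4. It was past the threshold at neither site alone (-1.49 at ICBR and -0.80 at Novogene). At 40 weeks, *Peg3* measured 149.7, 152.9, 272.6, 223.6, and 146.9 in WT muscle, 686.4, 2004, 435.3, 583.6, and 314.4 in KO, and 468.6, 798.6, 364.9, 299.1, and 519.0 in KO+AAV. Every KO and KO+AAV library lay above every WT library. For *Peg3* the difference of WT minus KO was -1.81 ± 0.35, a 3.5-fold higher level in KO, and -1.40 without KO replicate 2. WT minus KO+AAV was -1.33 ± 0.35.

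*Plagl1*, which encodes a zinc finger factor known as a regulator of other imprinted genes, was low in every gastrocnemius group. At 10 weeks its lowest, median, and highest values were 13.6, 22.1, and 28.2 normalized counts in WT mice, 5.05, 17.8, and 37.7 in KO, and 17.9, 40.9, and 106.3 in KO+AAV. At 40 weeks it measured 10.4, 27.6, 19.5, 26.6, and 21.9 in the WT libraries, 8.25, 14.3, 12.3, 10.7, and 9.65 in KO, and 11.2, 8.42, 11.1, 3.05, and 12.0 in KO+AAV. At 40 weeks, 4 of the 5 WT libraries lay above all KO and KO+AAV libraries, and WT replicate 1 lay within their ranges. The *Plagl1* difference of WT minus KO was 0.36 ± 0.37 at 10 weeks and 0.83 ± 0.40 at 40 weeks, not past the threshold.

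**Figure D3:**
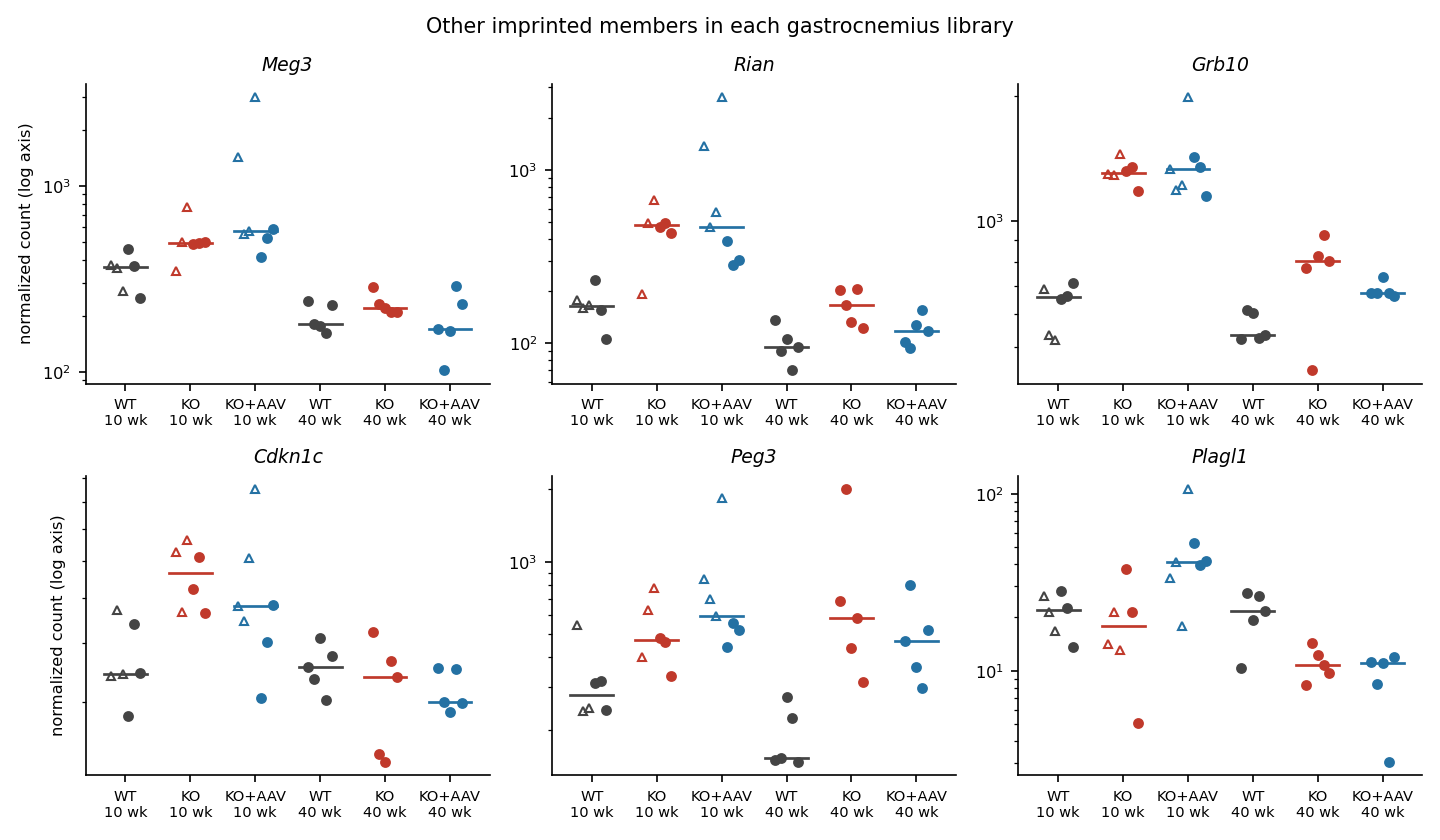
*Meg3*, *Rian*, *Grb10*, *Cdkn1c*, *Peg3*, and *Plagl1* in each main gastrocnemius library, in normalized counts on log axes, with triangles for ICBR, circles for Novogene, and lines for group medians. *Grb10* medians at 10 weeks are 657.8 in WT muscle, 1306 in KO, and 1334 in KO+AAV, and at 40 weeks 534.6, 802.6, and 674.2.

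In counts, 5 of the 10 genes were past the threshold as lower in WT than in KO at 10 weeks (*H19*, *Igf2bp2*, *Rian*, *Grb10*, and *Cdkn1c*), where 8.00% of all genes tested were past it in either direction. At 40 weeks, 5 were lower in WT (*H19*, *Igf2*, *Igf2bp2*, *Peg3*, and *Grb10*), where the share of all genes was 23.5%. Against KO+AAV, 6 were lower in WT at 10 weeks (*H19*, *Igf2bp2*, *Rian*, *Grb10*, *Meg3*, and *Peg3*; all genes, 5.15%) and 4 at 40 weeks (*H19*, *Igf2*, *Igf2bp2*, and *Peg3*; all genes, 12.5%). None was higher in WT in these 4 comparisons by limma as fitted. *Plagl1* at 40 weeks, with a WT minus KO+AAV difference of 1.17, was past the threshold as higher in WT with the slow fiber sum (1.22), with library quality weights, with the replicate block, or without WT replicate 1. The median difference of WT minus KO was -0.76 over the 10 genes and -0.0074 over all genes tested at 10 weeks, and -0.56 and 0.011 at 40 weeks. The genes may have been chosen on these contrasts and the comparisons share their WT libraries, so nothing is read from these counts.

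KO+AAV muscle was not past the threshold against KO muscle for any of the 10 genes in limma, with DESeq2 calling *Plagl1* at 10 weeks. The shares of all genes past it were small, 0.204% at 10 weeks and 0.259% at 40 weeks, which were 33 and 42 of 16199 genes. At an unadjusted p under 0.05 there were 1495 and 1631 such genes. The intervals leave room for differences. For *Igf2bp2* at 10 weeks, KO+AAV minus KO was -1.02 (95% interval -1.64 to -0.40), and -1.27 without KO+AAV replicate 5. For *Plagl1* it was 1.34 (0.61 to 2.06), and for *Meg3* 0.60 (0.01 to 1.2). For *H19* it was 0.27 (-0.40 to 0.93), and without KO+AAV replicate 4 it was 0.05. At 40 weeks, KO+AAV minus KO was -0.59 (-1.34 to 0.17) for *H19*, -0.72 (-1.67 to 0.23) for *Igf2*, and 0.12 (-0.58 to 0.83) for *Igf2bp2*.

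KO+AAV replicate 4 at 10 weeks stood above the other gastrocnemius libraries of its group for *H19*, *Meg3*, *Rian*, *Grb10*, *Igf2*, *Peg3*, and *Plagl1*. It also held the highest summed level of fibro-adipogenic cell markers, 95777.7 normalized counts against at most 39570.7 in the other main gastrocnemius libraries, and of tendon markers, 17370 against at most 8009.3. Without it, the KO+AAV minus KO difference at 10 weeks was 0.31 for *Meg3*, 0.16 for *Rian*, -0.10 for *Igf2*, and 1.11 for *Plagl1*. The part of these markers in the result was not tested.

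**Figure D4:**
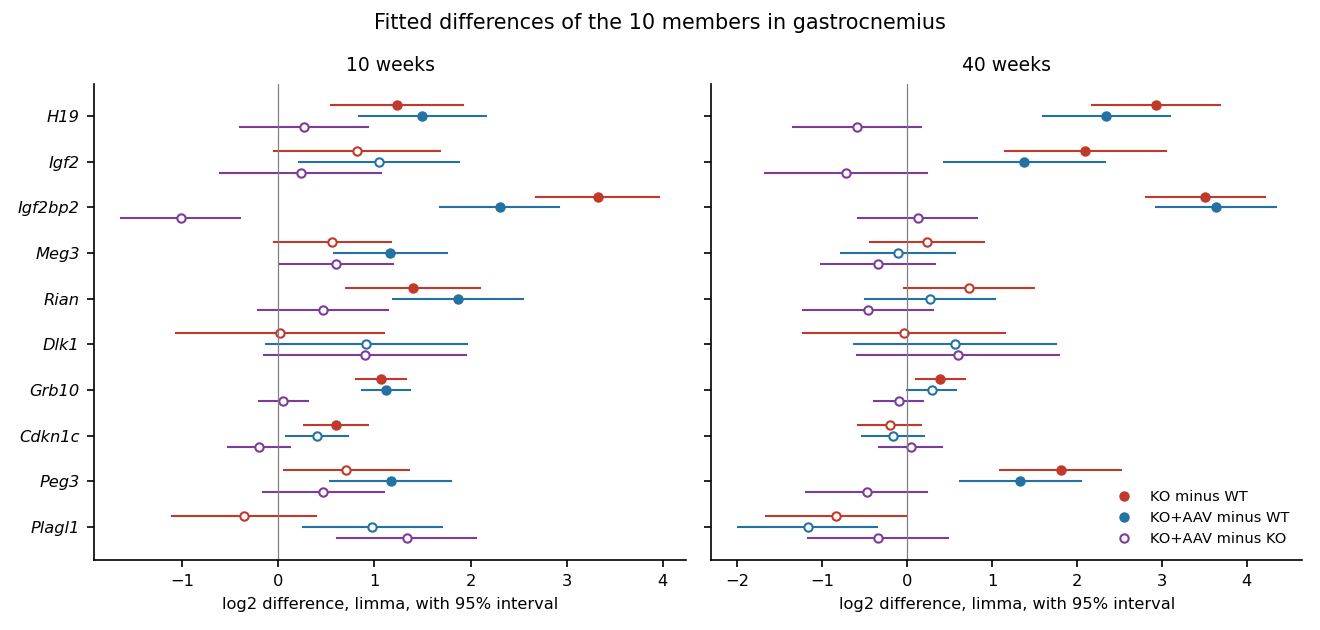
Differences of the 10 genes between gastrocnemius groups at 10 and 40 weeks, on the log2(normalized count + 1) scale, as KO minus WT (red), KO+AAV minus WT (blue), and KO+AAV minus KO (purple), with 95% intervals from limma. Filled points are past the adjusted threshold. No purple point is filled at either age, and *Igf2bp2* lies farthest from 0 in the red points, at 3.32 and 3.51.

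Between 10 and 40 weeks, 7 differences within a genotype passed the test in limma, 3 in KO and 4 in KO+AAV mice. In WT mice, none of the 10 genes did, 0 of them had an unadjusted p under 0.05, and edgeR and DESeq2 called none. Site and age overlap in part, since all 40-week libraries came from Novogene, and the site term rests on the 10-week libraries. In KO muscle, *H19* was higher at 40 weeks by 1.24 ± 0.38 (adjusted p = 0.0386), a call lost in 14 of 22 alternative fits, including those without KO replicate 2 (1.12, adjusted p = 0.118) or KO replicate 3 (0.99, adjusted p = 0.104) at 40 weeks and with the slow fiber sum (0.96, adjusted p = 0.0640). *Grb10* fell by 0.85 (± 0.14, adjusted p = 0.000678), or by 0.66 (adjusted p = 0.00138) without KO replicate 2, and *Cdkn1c* fell by 0.70 (± 0.18, adjusted p = 0.0185), and neither gene's 10- and 40-week libraries overlapped. A model of the KO libraries alone called none of these 3 genes. The *Cdkn1c* call was lost without KO replicate 2 (adjusted p = 0.0759) or KO replicate 3 (adjusted p = 0.0529) at 40 weeks. In the Novogene libraries alone, *Rian* fell by 1.51 (adjusted p = 0.00376) and *Meg3* by 1.09 (adjusted p = 0.0185) in KO, where the model of all libraries gave -1.13 (adjusted p = 0.0622) and -0.93 (adjusted p = 0.0815). Of all genes tested, 8.31% changed with age in KO muscle (2.91% without KO replicate 2), 8.53% in KO+AAV muscle, and 0.148% in WT muscle.

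In KO+AAV muscle, 4 genes fell from 10 to 40 weeks with no overlap between the ages. *Plagl1* fell by 2.23 (± 0.41, adjusted p = 0.000722), *Rian* by 2.06 (± 0.38, adjusted p = 0.000750), *Meg3* by 1.87 (± 0.33, adjusted p = 0.000537), and *Grb10* by 1.0 (± 0.14, adjusted p = 3.69e-05). Without KO+AAV replicate 4 at 10 weeks the differences were -2.08 for *Plagl1*, -1.85 for *Rian*, -1.67 for *Meg3*, and -0.94 for *Grb10*, all still past the threshold. In the Novogene libraries alone, KO+AAV *Rian* fell by 1.45 and *Meg3* by 1.47 (limma, adjusted p = 0.00160 for both). *Plagl1* fell there by 2.28 (adjusted p = 0.011) and *Grb10* by 0.93 (adjusted p = 0.0019). In the same fit, the WT differences were -0.68 for *Rian* (adjusted p = 0.834) and -0.83 for *Meg3* (adjusted p = 0.563). The *Meg3* call in KO+AAV was lost with the replicate block and in a model of the KO+AAV libraries alone, and the *Rian* call in the latter. Marker sums moved with age too in KO+AAV, without overlap. Fibro-adipogenic cell markers went from 17896.1 to 95777.7 at 10 weeks to 4567.0 to 16104.4 at 40 weeks, regenerating fiber markers from 14066.3 to 49961.8 to 2210.5 to 8044.4, and satellite cell markers from 40706.5 to 56344.9 to 57573.8 to 70901.8. In KO, regenerating fiber markers went from 7922.3 to 39454.8 to 4466.2 to 7341.8. In WT they went from 2695.8 to 13790.1 to 1202.0 to 1548.6, also without overlap. Satellite cell markers in WT went from 48067.2 to 54713.8 to 55204.5 to 67739.7, again without overlap. Fibro-adipogenic cell marker sums overlapped between the ages in WT and in KO. The satellite cell list includes the desmin gene *Des*, and its sum was 41462.7 to 118037.4 in KO heart, so it does not measure the number of satellite cells. The regenerating fiber sum has the limit given above for *Actc1*. The part of these marker sums in the result was not tested. *Igf2bp2* went the other way, by 0.83 ± 0.35 (adjusted p = 0.137), and by 1.18 (adjusted p = 0.0284) without KO+AAV replicate 5 at 10 weeks.

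The change of a genotype difference between the ages is given as a description. For *Grb10*, the WT minus KO+AAV difference moved by 0.83 ± 0.19, from -1.12 at 10 weeks to -0.29 at 40 weeks. It was the 1 gene of the 10 past the threshold (0.642% of all genes), and no longer so in 7 of 33 alternatives, which were the Novogene libraries alone, no filter on low values, and leaving out WT replicate 3 or 4 at 10 weeks or WT replicate 2 or 3 or KO+AAV replicate 5 at 40 weeks. For *Plagl1* it moved by 2.15 ± 0.54, from -0.98 to 1.17. The WT minus KO difference of *H19* moved by -1.70 ± 0.50 (0.370% of all genes passed), and its larger fold at 40 weeks was not past the threshold as a change. For KO+AAV minus KO, no gene of the network was past the threshold by limma, 3 had an unadjusted p under 0.05, and 0.00617% of all genes were past it. The *Igf2bp2* change there was 1.14 ± 0.46.

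In the GFP experiment, both groups were KO, and 2 of the 10 genes passed the test in limma, where 3.09% of all genes did. *Igf2bp2* measured 60.8, 97.5, and 82.0 normalized counts in the KO+GFP libraries and 175.7, 219.4, and 285.0 in the control KO libraries. The groups did not overlap, and KO+GFP minus control was -1.49 ± 0.20 (adjusted p = 0.00231), a 2.81-fold higher level in the controls. In the main experiment, the difference of KO+AAV minus KO at the same age was -1.02, given here side by side because the experiments were normalized separately and their difference was not tested. *Peg3* measured 311.8, 410.6, and 375.4 in KO+GFP and 264.0, 248.9, and 221.8 in controls, without overlap, a difference of 0.57 ± 0.12 (adjusted p = 0.0269). The *Peg3* call was lost without KO+GFP replicate 2 or 3 or control replicate 2 or 3, each of which leaves 2 libraries in a group.

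*H19* measured 5056, 5737, and 5484 normalized counts in KO+GFP and 3241, 7616, and 4156 in control KO muscle, a difference of 0.21 ± 0.23 (adjusted p = 0.674), with all GFP values inside the control range. *Rian* had a difference of -0.82 ± 0.31 (adjusted p = 0.174), and its ratio to *Meg3* was 0.566 to 0.833 in KO+GFP against 0.914 to 1.03 in controls, without overlap. Marker sums also differed between these groups. Slow fiber markers summed to 11138.7 to 15682.7 in KO+GFP and 1272.9 to 7660.1 in controls, macrophage markers to 485.1 to 571.7 and 189.6 to 256.9, fibro-adipogenic cell markers to 9753.1 to 14513.4 and 5268.9 to 9097.0, fiber markers to 939908.6 to 991846.8 and 1138459.4 to 1346486.5, and Schwann cell markers to 430.0 to 540.3 and 1074.0 to 1280.5. Their part in the result was not tested.

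Outside gastrocnemius, none of the genes tested passed the test between KO and KO+AAV mice at 40 weeks. The study describes the CK6 promoter as inactive in heart and liver. Tests covered 9 of the 10 genes in heart, lung, and white fat and 8 in liver, since *Dlk1* was too low in heart, lung, and liver and *Igf2* in liver and white fat. By limma, 0% of all genes passed in heart, 0% in liver, 0% in white fat, and 0.0237% in lung. At an unadjusted p under 0.05 there were 232 genes in heart, 553 in liver, and 220 in white fat, none of them in the network, and DESeq2 called 8 in liver, 1 in white fat, and 628 in lung. The nearest of the network was *Plagl1* in lung, at 2204, 1909, 2038, and 2264 normalized counts in KO and 1709, 1689, 1703, and 1529 in KO+AAV. These groups did not overlap, with a difference of -0.34 ± 0.07 (adjusted p = 0.129 in limma, 0.00424 in DESeq2). Cardiomyocyte markers in lung summed to 4409 to 43561 in KO and 65418 to 228457 in KO+AAV, and their part in the result was not tested.

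*H19* was found mainly in gastrocnemius and heart. Its normalized counts were 979.5, 14.3, 650.2, and 8020 in KO heart and 2477, 858.4, 1301, and 1729 in KO+AAV heart, and at most 39.0 in any lung, liver, or white fat library. In heart, the group medians were 7.74 and 14.5 RPKM, and in the other tissues at most 0.20 RPKM. KO heart replicate 2, the library at 14.3, held 1515957.5 normalized counts of hepatocyte markers against at most 667.8 in the other heart libraries. KO heart replicate 4 and KO+AAV heart replicate 1 held 613664.1 and 95559.5 of atrial markers, against at most 8558 in the others. With these 3 libraries left out together, chosen after the data were seen, KO+AAV minus KO in heart was 0.64 for *H19* and -0.20 for *Grb10*, against 1.49 ± 1.63 and 0.19 ± 0.26 in all libraries.

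White fat had the highest group medians of *Peg3*, *Plagl1*, and *Cdkn1c* of the tissues sequenced. In KO and KO+AAV white fat, group medians were 41.1 and 55.4 RPKM for *Peg3*, 18.3 and 21.8 RPKM for *Plagl1*, and 40.0 and 49.8 RPKM for *Cdkn1c*. In gastrocnemius of KO mice at 40 weeks, the medians were 2.63, 0.0823, and 10.1 RPKM. Tissue and site cannot be told apart here, since these gastrocnemius libraries came from Novogene and the other tissues from ICBR. In gastrocnemius, *Gm44732*, which overlaps *Cdkn1c* on the other strand, held 43.6% to 75.6% as many reads as *Cdkn1c* at Novogene and 0.186% to 1.13% at ICBR. The *Cdkn1c* levels are therefore not directly comparable between these tissues. *Dlk1* was 0.295 RPKM in KO white fat and at most 0.256 RPKM as a median in gastrocnemius. Lung came next for *Cdkn1c* at 33.6 RPKM in both groups and for *Plagl1* at 6.09 and 4.97 RPKM. *Peg3* in white fat measured 28370, 2775, 20750, and 35309 normalized counts in KO and 33455, 62772, 20196, and 38230 in KO+AAV, a difference of 1.2 ± 0.79 (adjusted p = 0.907), or 0.38 without KO replicate 2. That library, the lowest for *Peg3*, *Plagl1*, *Cdkn1c*, *Grb10*, and *Igf2bp2*, held 1713458.4 normalized counts of epididymis markers.

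**Figure D5:**
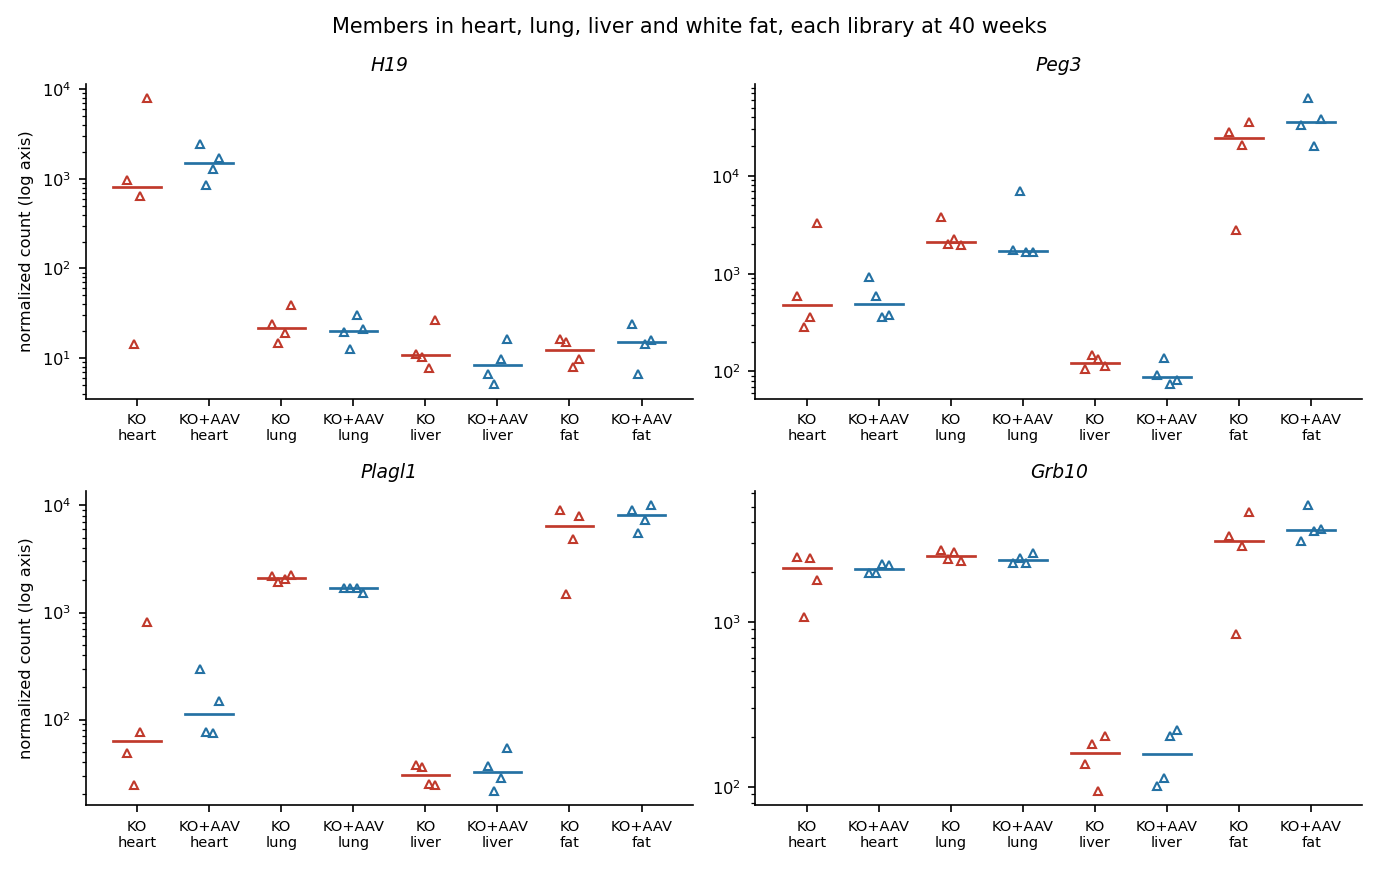
*H19*, *Peg3*, *Plagl1*, and *Grb10* in each KO and KO+AAV library of heart, lung, liver, and white fat at 40 weeks, in normalized counts on log axes, with each tissue group normalized on its own. *H19* reaches 8020 in heart and stays at or under 39.0 elsewhere, and *Peg3* reaches 62772 in white fat.

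*Igf2bp2* did not share this tissue pattern. Its group medians were 2.40 and 2.46 RPKM in heart, 2.58 and 2.22 RPKM in lung, 1.74 and 1.54 RPKM in white fat, and 0.564 and 0.418 RPKM in liver for KO and KO+AAV. KO gastrocnemius at 40 weeks, at 2.59 RPKM, was near these values for heart and lung, and WT gastrocnemius, at 0.161 RPKM, was below all of them. The KO libraries of heart ranged from 408.1 to 1099 normalized counts, so heart, lung, and KO gastrocnemius do not stand in a clear order. *Igf2* was at 0 in 7 of 8 liver libraries and *Meg3* was present in every tissue, with medians up to 1.88 RPKM in white fat.

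Other imprinted genes and the IGF pathway were examined as lists of 26, 21, and 8 genes for the imprinted network, IGF signaling, and the let-7 and IGF2BP axis. Of 21 other imprinted genes tested at 10 weeks, 2 were higher and 2 lower in WT than in KO, where 8.00% of all genes differed, and at 40 weeks 4 were higher and 6 lower, where 23.5% did. Without KO replicate 2 at 40 weeks, 3 of 20 were higher and 3 lower (19.7% of all genes). *Gatm*, which encodes the enzyme of the committed step of creatine synthesis, measured 57.8 to 115.3 normalized counts in WT and 681.2 to 1298 in KO at 10 weeks, 11-fold higher in KO. *Snrpn*, which encodes a small ribonucleoprotein, was 1.60-fold higher in WT. For WT against KO+AAV, 1 was higher and 2 lower at 10 weeks (all genes, 5.15%), and 3 higher and 1 lower at 40 weeks (12.5%). *Gatm* was then 4.19-fold higher in KO+AAV at 10 weeks. None passed for KO+AAV against KO at either age by limma.

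Of the 20 IGF signaling genes tested, 1 was higher and 0 lower in WT than in KO at 10 weeks, and 2 were higher and 7 lower at 40 weeks, beside the same 8.00% and 23.5% of all genes. Without KO replicate 2 at 40 weeks, 3 were higher and 5 lower. *Igf1*, which encodes the main IGF of adult muscle, was higher in WT than in KO by 1.19 ± 0.29 at 10 weeks and 0.98 ± 0.32 at 40 weeks, opposite in sign to *Igf2*. Without KO replicate 2 the latter was 0.93 ± 0.34 and no longer past the threshold. *Igf2r*, which encodes the receptor that clears IGF2, was lower in WT at 40 weeks (WT minus KO -0.53 ± 0.12, or -0.41 without KO replicate 2), with 1239 to 1585 normalized counts in WT and 1634 to 2919 in KO. *Igfbp2*, which encodes an IGF-binding protein, measured 0 to 3.13 in WT and 6.90 to 48.2 in KO at 40 weeks. *Igfbp5*, another such protein, measured 7448 to 16141 in WT and 256.1 to 7418 in KO. *Igf1r*, which encodes the IGF1 receptor, was lower in WT at 40 weeks (WT minus KO -0.59 ± 0.21), and KO replicate 2 held its highest value, 1028. Without that library the *Igf1r* difference was -0.26 ± 0.15, not past the threshold. For WT against KO+AAV, 0 were higher and 3 lower at 10 weeks, and 2 higher and 3 lower at 40 weeks, beside 5.15% and 12.5% of all genes.

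With age, 0 of the other imprinted genes were higher and 1 was lower in KO muscle, and 0 and 5 in KO+AAV muscle, of 21 tested, where 8.31% and 8.53% of all genes changed. Of the IGF genes, 3 were higher and 3 lower in KO and 1 higher and 2 lower in KO+AAV, of 20 tested, and none of either list passed in WT by limma. Without KO replicate 2 at 40 weeks, 0 of the imprinted and 2 of the IGF genes passed in KO, beside 2.91% of all genes. *Igf1* fell by 1.25 in KO (adjusted p = 0.0184, or 0.0552 without KO replicate 2) and by 1.19 in KO+AAV (adjusted p = 0.0192). *Ndn*, a paternally expressed gene, fell by 1.71 in KO+AAV (adjusted p = 0.00192). In KO+GFP against control muscle, 1 of 19 other imprinted genes was higher and 2 were lower, and 2 of 18 IGF genes were higher and 2 lower, where 3.09% of all genes differed. *Dcn*, which encodes the matrix proteoglycan decorin and is among the fibro-adipogenic cell markers that summed higher in KO+GFP, rose by 0.85 ± 0.09 there (adjusted p = 0.000754), and *Slc38a4*, an amino acid transporter, fell by 0.60 (± 0.13, adjusted p = 0.0297). Of the let-7 axis genes, 0 of 4 tested passed at 10 weeks and in the GFP experiment, and 1 was lower in WT than in KO at 40 weeks, *Hmga1* (WT minus KO -0.55 ± 0.18, or -0.42 and not past the threshold without KO replicate 2). With age, 0 of these 4 were higher and 1 was lower in KO and in KO+AAV muscle, and 0 passed in KO without that library. No gene of the 3 lists passed in the other tissues.

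The genes whose log2 values, after the fitted site difference was removed, ran most like those of *H19* over the 34 main gastrocnemius libraries were *Gm27483* (Pearson r = 0.970) and *Gm27786* (0.966), both annotated within *H19* on the other strand, and *Trim72* (0.907), which encodes a membrane repair protein of muscle. *Gm27483* and *Gm27786* may hold reads of *H19* itself, so their r is not read as separate genes running with it. For *Igf2* the genes most alike were *Cdh13* (0.770), *Trp53i11* (0.758), and *Emp2* (0.757), and for *Meg3* the matrix genes *Sparc* (0.875), *Col1a1* (0.874), and *Col1a2* (0.856). Without KO+AAV replicate 4 at 10 weeks, r was 0.765, 0.695, and 0.705 for the *Igf2* genes in that order. It was then 0.811, 0.818, and 0.792 for the *Meg3* genes and 0.915 for *Trim72*. *H19* and *Igf2* correlated with r = 0.722, and 0.380 after group means were removed, which was 0.185 without KO+AAV replicate 4 at 10 weeks. *H19* and *Igf2bp2* correlated with 0.754, and 0.044 after group means were removed. These values describe points that share libraries and depth.

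The reads assigned to the other strand of *H19* differed by sequencing site. *Gm27483* held 0.259% to 0.833% as many reads as *H19* in the 10 ICBR libraries and 18.7% to 23.4% in the 24 Novogene libraries of the main gastrocnemius set. For *Gm44732*, which overlaps *Cdkn1c* on the other strand, the range was 0.186% to 1.13% of *Cdkn1c* at ICBR and 43.6% to 75.6% at Novogene. *H19* itself was lower at Novogene than at ICBR by a site difference of -0.80 ± 0.27 (limma, adjusted p = 0.0270). The strand setting of the counting is not given in the sources used here, and levels of *H19* and *Cdkn1c* set across sites carry this difference.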

How the data were processed

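Per the labels and the study's methods, the authors aligned poly(A) reads to GRCm38 (mm10) with HISAT2, counted them per gene with HTSeq, and deposited a normalized signal, the count divided by a DESeq2 size factor per library. Each tissue group and the GFP experiment were normalized separately. Multiplied back, a median of 100.0% of values per library came out whole within 0.1 reads. 0 sample columns were left unused. Of 55401 genes, 55141 had a symbol.

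The 10 genes and all lists were chosen with earlier results of these data known. Lists were other imprinted genes, IGF signaling genes, and genes of the let-7 and IGF2BP axis. All 10 genes are named in every comparison. From the lists, the called gene with the smallest p per direction may be named, and *Igf1*, *Igf1r*, *Igf2r*, and *Igfbp5* always. Atrial, tendon, and slow fiber markers were added after the data were seen.

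limma 3.58.1 (R 4.3.3) with an intensity trend was fitted to log2(deposited value + 1) for genes with a mean above 5. One model held the 34 main gastrocnemius libraries (6 groups and site). Separate models of 2 groups were fitted for the GFP experiment and for every other tissue. The 17 comparisons were adjusted separately over all genes tested. The method was tested on simulated data. Alternatives were edgeR 4.0.16 and DESeq2 1.42.0 on the recovered reads, other filters and pseudocounts, library quality weights, single sites, models of 2 groups, a replicate block, and leaving out each library. RPKM used recovered reads and exon bases not shared on the same strand.

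Depth limits precision for *Igf2*, *Dlk1*, and *Plagl1* in gastrocnemius. Same-numbered samples were checked for pairing, and the correlation of their deviations ran from -0.38 to 0.58. Not every pair exceeded 0.1, so the main fits treated them as unpaired. So few pairs cannot exclude pairing. Of the KO and KO+AAV pairs, 3 of 5 exceeded 0.1 in gastrocnemius at 40 weeks and 3 of 4 in white fat, against 0 of 6 in gastrocnemius at 10 weeks and 0 of 4 in liver.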

Additional observations from a re-analysis of the deposited data

Results flagged for a closer look

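In 23 of the 139 gene and group pairs examined, 1 library stood apart from the rest of its group of 4 to 7 by its gap over the range. The rule takes about 1 in 20 as the rate by chance. These pairs share libraries and some counts are near the lower limit of detection, so no excess over chance is read from the number. KO+AAV replicate 4 at 10 weeks was such a library for 6 genes, with 45861.7 normalized counts of *H19* (others 7168.9 to 20153.1), 2992 of *Meg3* (415.8 to 1435.8), 1981.4 of *Grb10* (1147.5 to 1426.8), 84.92 of *Igf2* (15.17 to 26.59), 1843.7 of *Peg3* (441.1 to 851.3), and 106.3 of *Plagl1* (17.91 to 53.08). KO heart replicate 4 stood apart for 5 genes, with 8019.8 of *H19* (14.25 to 979.5), 895.5 of *Rian* (98.45 to 228.6), 120.3 of *Igf2* (3.886 to 12.29), 3270.9 of *Peg3* (285 to 594.8), and 810.9 of *Plagl1* (24.61 to 76.84). KO+AAV heart replicate 1 held 652.9 of *Rian* (189.5 to 212.2).

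Single genes stood apart in 11 other libraries or gene pairs. In gastrocnemius these were *Meg3* in KO replicate 3 at 10 weeks (766.1), *Dlk1* in WT replicate 5 (28.15) and *Peg3* in WT replicate 2 (547.4) at 10 weeks, *Igf2bp2* in KO+AAV replicate 5 at 10 weeks (415.8), *Peg3* in KO replicate 2 at 40 weeks (2004), and *Grb10* in KO+AAV replicate 3 at 40 weeks (734.3). In lung they were *Peg3* in KO replicate 1 (3838.7) and KO+AAV replicate 2 (7089.1) and *Plagl1* in KO+AAV replicate 4 (1529.2, the low end). In the remaining tissues they were *Igf2* in KO liver replicate 1 (0.8631, others 0) and *Igf2bp2* in KO white fat replicate 2 (237.6, others 598.9 to 625.8).

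The WT minus KO+AAV difference of *Grb10* changed between 10 and 40 weeks by 0.8288 on the log2 scale. It was past the threshold in limma and lost in 7 of 33 alternatives, and it is a description, since the gene may have been chosen on its 10-week difference.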

How the results depend on the processing

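No difference of the 10 genes that was past the threshold reversed its direction under an alternative. Leaving out 1 library at a time kept 1908 values as they were, moved 79, brought 12 past the threshold, and took 41 below it, and the other alternatives kept 1473, moved 52, brought 33 past it, and took 40 below it. The *Igf2bp2* calls in 5 comparisons held in every alternative, as did *H19*, *Peg3*, and, for WT against KO, *Igf2* at 40 weeks. *Igf2* for WT against KO+AAV at 40 weeks held in 5 of 20, *Grb10* for WT against KO at 40 weeks in 10 of 21, and *H19* with age in KO in 8 of 22. The cause of these losses was not tested, except that fits of 1 site or 2 groups hold fewer libraries. No scaling moved the median of all genes by more than 0.1 log2.

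Counting those of the 10 genes past the threshold, WT against KO at 10 weeks gave 5, and 3 in Novogene and 2 in ICBR libraries alone. WT against KO+AAV at 10 weeks gave 6, and 2 in Novogene libraries. KO+AAV against KO at 10 weeks gave 0, and 1 by DESeq2 (*Plagl1*) and 1 with quality weights (*Igf2bp2*). The change of WT against KO with age gave 0, and 1 by DESeq2 (*H19*). That of WT against KO+AAV gave 1, and 0 with no filter or in Novogene libraries, 2 by edgeR or with the slow fiber sum, and 3 by DESeq2 or with quality weights. Age in KO gave 3, and 1 with quality weights and 0 in a model of its 2 groups. Age in KO+AAV gave 4, and 2 in such a model. Lung gave 0, and 1 by DESeq2 (*Plagl1*). Leaving out single libraries gave 1 to 4 for age in KO, 0 to 1 for the change of WT against KO, 0 to 2 for that of WT against KO+AAV, and 1 to 3 for GFP.

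With the replicate number as a block, age in KO gave 0 of the 10 genes and the change of WT against KO+AAV gave 2. The labels do not say whether same-numbered samples are paired (deviations correlated by -0.38 to 0.58). No other count under the block moved by more than 1.5 times, and GFP gave 3 against 2.

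Counts over all genes moved more. For WT against KO, the 1296 genes at 10 weeks became 301 to 3416 and the 3804 at 40 weeks 2142 to 4105. For KO+AAV against KO, the 33 at 10 weeks became 3 to 180 and the 42 at 40 weeks 4 to 79. For WT against KO+AAV, the 834 became 86 to 1698 and the 2018 became 1603 to 3165. With age, the 24 in WT became 1 to 171, the 1346 in KO 3 to 1678, and the 1382 in KO+AAV 115 to 2088. The changes with age ranged from 0 to 206 (60), 0 to 5 (1), and 3 to 466 (104), GFP from 428 to 868 (448), and lung from 0 to 628 (5). The share higher at 40 weeks among called genes in KO was 48.7%, 64.3% by edgeR, and 59.5% by DESeq2. For KO+AAV against KO at 40 weeks, 85.7% of called genes were higher, and 74.7% by DESeq2. For the change of WT against KO+AAV, 22.1% were positive, and 37.3% by DESeq2. For lung, the share higher was 100% by limma and 84.9% by DESeq2.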
